A study of Monodelphis domestica with 7 samples.

Results

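The genes described here are 8 genes of the skeletal muscle sarcomere, measured by RNA-Seq in the spinal cord of the gray short-tailed opossum *Monodelphis domestica*, a marsupial. They were selected by gene identifier, 8 of the 21314 genes in the deposited count table, and all 8 were among the 13534 genes with enough reads to be tested. Only 4 of them, *ACTA1*, *TPM2*, *NEB* and *ACTN3*, would have passed the same read minimum without the P28+24h injured libraries. All 8 stand on the list of genes raised at P28+24h that was drawn up from these same libraries, so the P28+24h comparison, and through its control the comparison of ages, is not independent evidence of a direction.

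The study asked how the cord above a lesion responds at an age when axons still grow across it and at an age when they do not. Pups of both sexes were transected completely at thoracic level T10 on postnatal day 7 or 28 under isoflurane, and the segment rostral to the cut was collected 24 h later (P7+24h injured, P28+24h injured). Controls were uninjured cords of matched age: P8 controls came from separate litters, and P29 controls were anaesthetised littermates of the injured pups. RNA of 2 pooled individuals went into each of the 7 libraries, of which the P29 controls had 1 and every other group 2. Replicate 1 of each group was sequenced in run 1 and replicate 2 in run 2, the samples of the runs were also collected separately, and the P29 control was in run 1 only. The pups came from several litters, but the sources used here do not say how litters were divided among the pools, and the methods list more animals per group than pools of 2 account for. The p-values therefore measure the spread between these pools only.

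The sarcomere is the repeating contractile unit of striated muscle, in which thick filaments of myosin slide along thin filaments of actin anchored in the Z disc. Fast, slow, embryonic and cardiac fibres use different genes for the same parts, and several of the genes here belong to fast skeletal fibres. The spinal cord itself holds no skeletal muscle, but the axial muscles of the back lie directly against the vertebral column around it. In bulk RNA, a change in the number of cells of a type cannot be told apart from a change in the RNA each cell holds.

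Library totals ran from 3332232 to 6256074 counts, and the run 2 libraries were the deeper ones. Levels are given as CPM, counts scaled to the TMM-adjusted library total, and 3 counts, taken as the floor of detection, came to between 0.448 and 1.06 CPM depending on the library. The tissue label was checked with *GFAP* of astrocytes and *MBP* of myelin, whose summed level was 296 to 1119 CPM in the 4 younger libraries and 14744 to 23564 CPM in the 3 older ones. Without gene lengths for the genome used, levels are compared between libraries for the same gene and not between genes.

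The sarcomere genes were low in every library except those of the P28+24h injured cords. Their summed level was 11.1 CPM in the P8 control of run 1 and 11.0 CPM in that of run 2, and in the same order of runs it was 17.6 and 16.6 CPM in the P7+24h injured cords, 19.2 CPM in the P29 control, and 184 and 70.3 CPM in the P28+24h injured cords. As raw counts this was 45 to 111 reads over the 8 genes in the other 5 libraries, against 523 and 434 at P28+24h. Between 1 and 4 of the 8 genes lay at or under 3 counts in each of the other libraries, and none did at P28+24h.

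**Figure D1:**
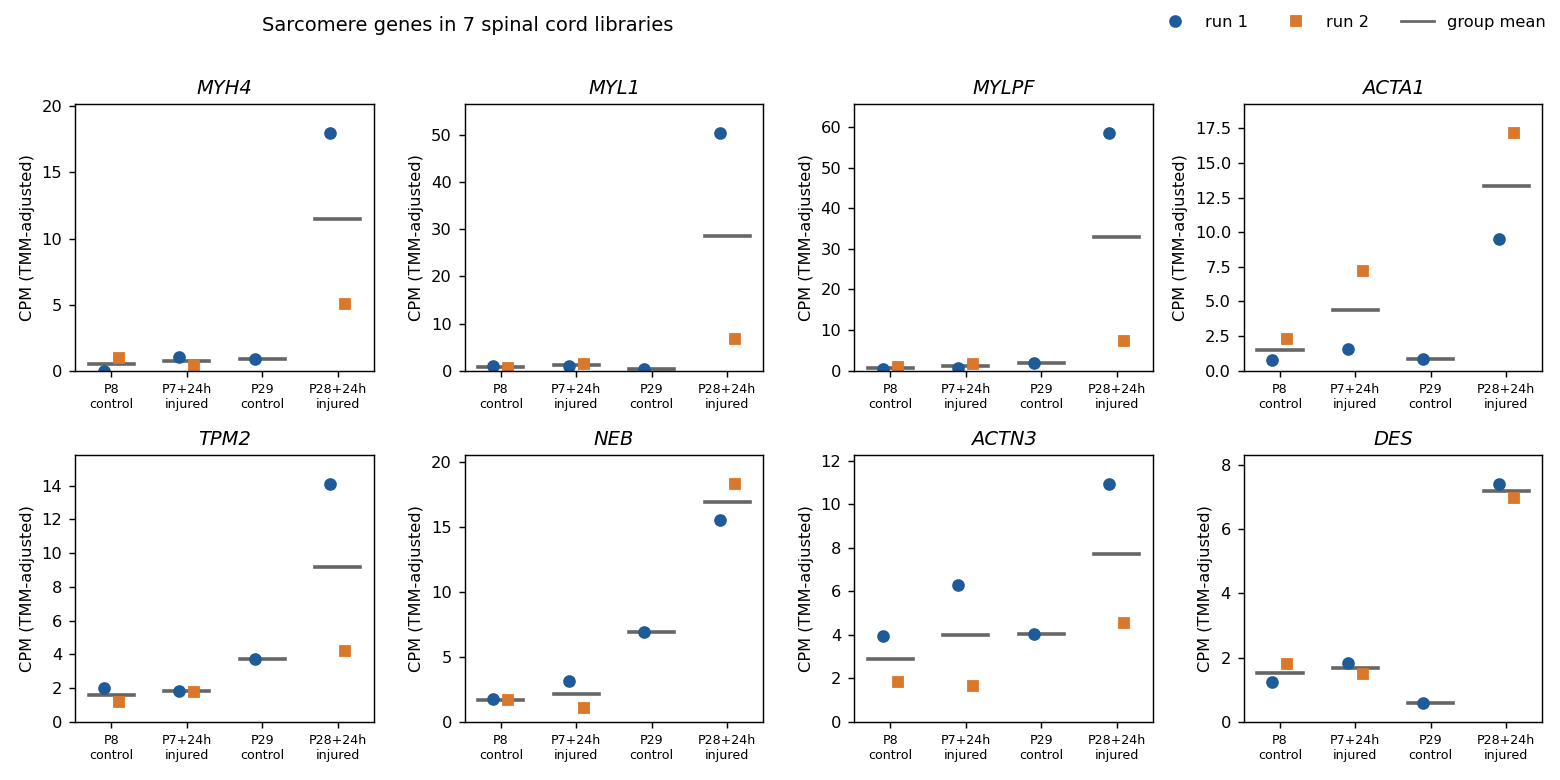
Level of each of the 8 sarcomere genes in the 7 libraries, in TMM-adjusted CPM on a linear axis from 0, with run 1 as circles, run 2 as squares and the group mean as a bar. The P28+24h injured libraries are the highest of each panel except for *ACTN3*, and *MYL1* and *MYLPF* stood far higher in run 1 (50.4 and 58.5 CPM) than in run 2 (6.80 and 7.29 CPM).

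Among the thick filament genes, *MYL1* (ENSMODG00000015807) encodes the alkali light chain of fast skeletal myosin. It had 0.989 CPM in the run 1 library of P8 controls and 0.494 CPM in that of run 2, then, in the same order of runs, 1.05 and 1.34 CPM in the P7+24h injured cords, 0.287 CPM in the P29 control, and 50.4 and 6.80 CPM in the P28+24h injured cords. The P29 control value is a single read, and both P28+24h libraries were above all others.

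*MYLPF* (ENSMODG00000001476) encodes the phosphorylatable, regulatory light chain of the same fast myosin. Its level was 0.494 and 0.823 CPM in the P8 controls, 0.787 and 1.64 CPM at P7+24h, 2.01 CPM in the P29 control, and 58.5 and 7.29 CPM at P28+24h. The P28+24h libraries did not overlap with any other group, and within that group run 1 was again the higher.

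*MYH4* (ENSMODG00000001389) encodes a fast myosin heavy chain, the motor itself. It gave no read in the P8 control of run 1 and 0.987 CPM in that of run 2, 1.05 and 0.448 CPM at P7+24h, 0.861 CPM in the P29 control, and 18.0 and 5.02 CPM at P28+24h. In the RefSeq annotation of the mMonDom1.pri assembly *MYH4* lies next to *MYH1*, a close relative, and reads of such paralogs may have been assigned to either copy or dropped, so its level is uncertain to that extent.

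Of the thin filament genes, *ACTA1* (ENSMODG00000008918) encodes skeletal alpha-actin, the main actin of adult skeletal fibres. The P8 controls had 0.742 and 2.30 CPM, the P7+24h injured cords 1.57 and 7.17 CPM, the P29 control 0.861 CPM, and the P28+24h injured cords 9.52 and 17.2 CPM. Here run 2 was the higher run in every group that had both, and the P7+24h library of run 2 came closest to the P28+24h levels. Actin genes are highly alike, and a second locus annotated as *ACTA1*-like is present, so the split of reads between them is uncertain.

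*TPM2* (ENSMODG00000007463) encodes beta-tropomyosin, which lies along the actin filament. Its level was 1.98 and 1.15 CPM in the P8 controls, 1.84 and 1.79 CPM at P7+24h, 3.73 CPM in the P29 control, and 14.1 and 4.21 CPM at P28+24h. The run 2 library of P28+24h stood only just above the P29 control.

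*NEB* (ENSMODG00000003935) encodes nebulin, a giant protein that runs along the thin filament. The P8 controls had 1.73 and 1.65 CPM, the P7+24h injured cords 3.15 and 1.05 CPM, the P29 control 6.89 CPM, and the P28+24h injured cords 15.5 and 18.3 CPM. The P29 control lay above the 4 younger libraries and below both P28+24h libraries, which were close to each other.

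*ACTN3* (ENSMODG00000008160) encodes the alpha-actinin of fast fibres, which cross-links actin at the Z disc. It had 3.96 and 1.81 CPM in the P8 controls, 6.29 and 1.64 CPM at P7+24h, 4.02 CPM in the P29 control, and 10.9 and 4.53 CPM at P28+24h. It was the exception to the pattern, since the P7+24h library of run 1 exceeded the P28+24h library of run 2, and run 1 was the higher in every group with both runs.

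*DES* (ENSMODG00000015180) encodes desmin, the intermediate filament that ties neighbouring Z discs together and is also made in smooth and cardiac muscle. Its level was 1.24 and 1.81 CPM in the P8 controls, 1.84 and 1.49 CPM at P7+24h, 0.574 CPM in the P29 control, and 7.41 and 6.96 CPM at P28+24h. The P28+24h libraries agreed closely, with a mean of 7.18 ± 0.31 CPM (SD, n = 2), in contrast to 28.6 ± 30.8 CPM for *MYL1* and 32.9 ± 36.2 CPM for *MYLPF*.

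In the comparison of P28+24h injured with P29 control cords, which asks what transection changes in the older cord, all 8 sarcomere genes were higher in both injured libraries than in the control. This held for 22.1% of all genes tested, and with 1 control library it needs only that both values lie above a single one. For 7 of the 8, all but *ACTN3*, both injured libraries also exceeded the other 5 libraries, which 5.7% of all genes did. The fitted log2 fold changes had a median of 3.63 over the sarcomere genes and 0.05 over all genes. All 8 had been listed as raised in this comparison, and *MYL1*, *MYLPF*, *MYH4* and *DES* passed the read minimum only through the P28+24h libraries. These shares and medians are therefore not independent evidence of a direction.

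With edgeR's quasi-likelihood test over the 4 groups, none of the 8 genes and none of all genes was called in this comparison (0% of all genes called higher). A call here means that the fold reached 2 in either direction with an adjusted p under 0.05. At an unadjusted p under 0.05 the same test picked 4 sarcomere genes, all higher, and 157 of all genes (0.961% of all genes were higher at that p), and DESeq2 called 0 of all genes and edgeR's exact test 3, no sarcomere gene among them. With the run as a block in the quasi-likelihood test, *MYL1* and *MYLPF* were called and 0.584% of all genes were called higher. *MYL1* rose by 7.07 ± 2.05 on the log2 scale (fitted value ± SE, adjusted p = 0.0229) and *MYLPF* by 4.50 ± 1.09 (adjusted p = 0.0453). The fitted fold of *MYL1* rests on the single control read and is not a precise figure. The block takes the run difference to be the same in all groups, and the P29 control was in run 1 only. For *MYLPF*, run 2 was the higher run in both younger groups, and run 1 was at P28+24h. For *MYL1*, run 1 was the higher in the P8 controls and at P28+24h, and run 2 was at P7+24h. As a single library, the P29 control also lends the test no spread of its own.

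The other 6 genes were not called with the block. *MYH4* had a log2 fold change of 4.10 ± 1.30 (adjusted p = 0.0784), *DES* 3.58 ± 1.05 (adjusted p = 0.066) and *ACTA1* 3.12 ± 0.94 (adjusted p = 0.0799). *TPM2*, *ACTN3* and *NEB* were lower in the order, with log2 fold changes of 1.64 ± 0.61, 1.51 ± 0.51 and 1.41 ± 0.50 and adjusted p-values of 0.198, 0.169 and 0.198. *TPM2*, *ACTN3* and *NEB* had the most reads of the 8 in the P29 control (13, 14 and 24). They passed the read minimum without the P28+24h libraries, as did *ACTA1*, whereas *MYL1*, *MYLPF*, *MYH4* and *DES* did not. Whether the minimum bears on this order was not tested. The order also differed between the runs. Against the same P29 control, the run 2 library of P28+24h had 3.63 times the *MYLPF* level (1.62 to 9.53, a 95% exact binomial interval that covers counting error only), while *ACTA1* was at 19.9 times (6.64 to 98.2) and *DES* at 12.1 times (3.16 to 103), the last pair over 3 and 2 control reads.

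The number called depended on the test. A likelihood ratio test with the run block called 6 of the 8, all but *NEB* (adjusted p = 0.0759) and *TPM2* (adjusted p = 0.0865), with 2.61% of all genes called higher. A quasi-likelihood fit on the compared groups alone, with spread from the 2 P28+24h libraries only, called 2 genes, *MYL1* among them. It also depended on the run 1 library of P28+24h: without that library the blocked quasi-likelihood fit called *MYL1*, *DES* and *NEB*, with 3.34% of all genes called higher, and the log2 fold change of *MYLPF* was 0.93 (adjusted p = 0.706), that of *TPM2* 0.54 and that of *MYH4* 2.06. Without the run 2 library of P28+24h all 8 were called, with 3.46% of all genes called higher. Without any single younger library 5 were, *MYH4*, *MYL1*, *MYLPF*, *ACTA1* and *DES*, with 1.88% and 1.99% of all genes called higher when the P8 control of run 1 or 2 was left out and 1.65% and 1.69% for the P7+24h library of run 1 or 2. Each of these fits assumes that a group left with a single library varies as the others do.

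**Figure D2:**
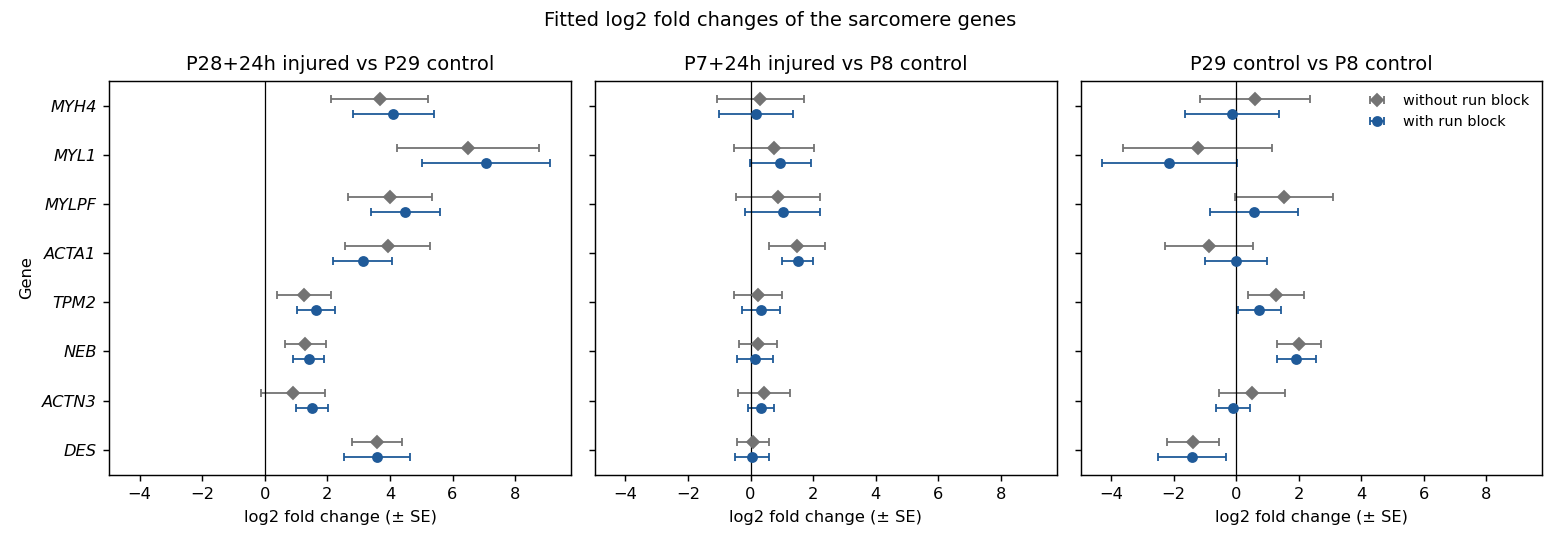
Log2 fold change ± SE of each sarcomere gene in 3 comparisons, from edgeR's quasi-likelihood fit over all 7 libraries without (gray diamonds) and with (blue circles) the run as a block. At P28+24h the blocked values run from 1.41 (*NEB*) to 7.07 (*MYL1*), at P7+24h from 0.05 (*DES*) to 1.50 (*ACTA1*).

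Within run 1, where injured and control cords can be set side by side without the run difference, the summed level at P28+24h was 9.59 times that of the P29 control, with a 95% exact binomial interval of 7.43 to 12.6 that covers counting error only. *MYLPF* was 29.1 times higher (13.8 to 73.6) and *TPM2* 3.78 times (1.98 to 7.70). *ACTN3* was 2.72 times higher (1.41 to 5.53) and *NEB* 2.25 times (1.34 to 3.87). For *MYL1*, *MYH4*, *ACTA1* and *DES* the control had 1 to 3 reads, and their ratios of 176 (31.0 to 6987), 20.9 (6.76 to 105), 11.1 (3.40 to 57.0) and 12.9 (3.15 to 113) have wide intervals. No ratio of this kind exists for run 2, which has no P29 control.

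The P28+24h libraries themselves differed more than counting error allows. The summed level in run 2 was 0.381 times that in run 1 (0.335 to 0.434), and the genes did not share that ratio. *MYLPF* was at 0.124 (0.0875 to 0.174), *MYL1* at 0.135 (0.0932 to 0.191) and *MYH4* at 0.279 (0.173 to 0.445) of the run 1 level. *TPM2* was at 0.298 (0.175 to 0.501) and *ACTN3* at 0.415 (0.240 to 0.715). The intervals of *DES* (0.940, 0.546 to 1.67) and *NEB* (1.18, 0.825 to 1.71) spanned 1, and *ACTA1* was higher in run 2, by 1.80 times (1.17 to 2.86).

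**Figure D3:**
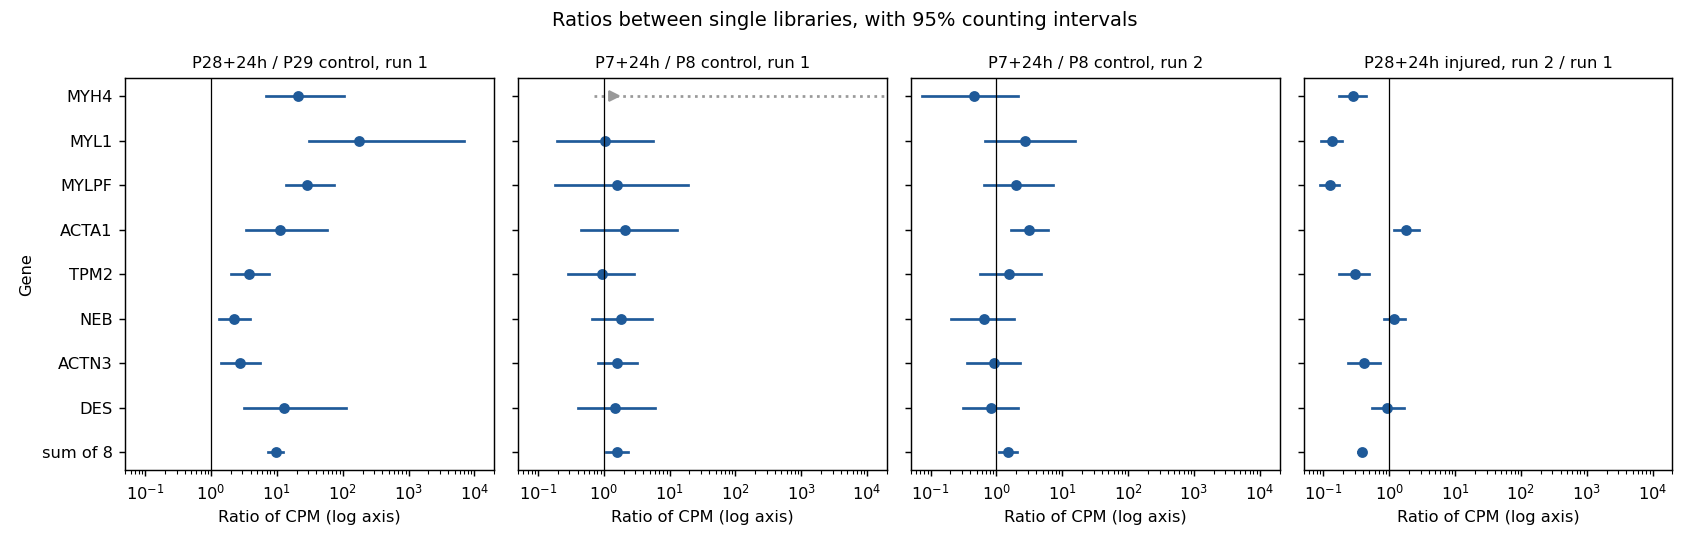
Ratio of TMM-adjusted CPM between single libraries for each sarcomere gene and their sum on a log axis, with 95% exact binomial intervals that cover counting error only; the gray arrow marks a lower bound where the control had no read. All 8 ratios lie above 1 for P28+24h in run 1, most P7+24h intervals span 1, and the run 2 to run 1 ratios at P28+24h spread from 0.124 (*MYLPF*) to 1.80 (*ACTA1*).

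The make-up of the sarcomere reads differed between these libraries, whose pools and runs cannot be told apart. In run 1 the thick filament genes took 68.8% of the 523 reads (exact binomial 95% interval 64.7 to 72.8%) and the thin filament genes 21.2% (17.8 to 25.0%). In run 2 the thick filament genes took 27.2% of the 434 reads (23.1 to 31.6%) and the thin filament genes 56.5% (51.6 to 61.2%). *MYLPF* held 31.7% of the reads in run 1 and 10.4% in run 2, whereas *ACTA1* held 5.16% and 24.4% and *NEB* 8.41% and 26.0%. The share of *ACTA1* was higher in run 2 in the younger groups too, at 20.9% against 6.67% in the P8 controls and 43.2% against 8.96% at P7+24h. In the P29 control, with 67 reads, the thin filament genes held 59.7% (47.0 to 71.5%) and *NEB* alone 35.8% (24.5 to 48.5%).

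**Figure D4:**
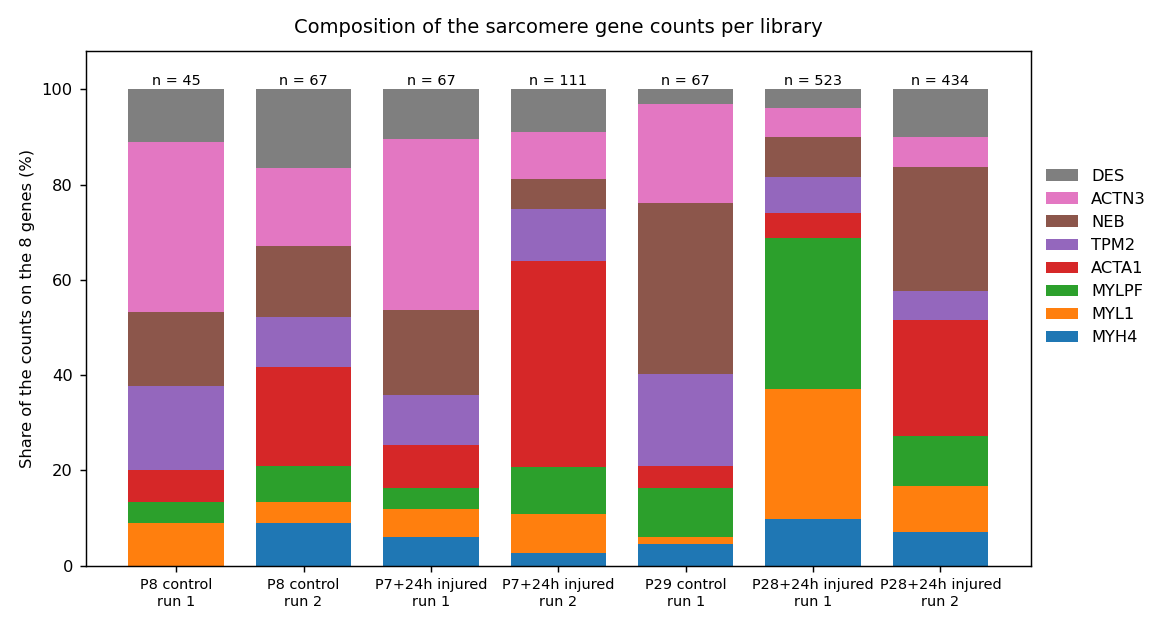
Share of each sarcomere gene in the reads on all 8 genes, in percent, for each library, with the number of reads above each bar. Thick filament genes (*MYH4*, *MYL1*, *MYLPF*) make up 68.8% of the bar in the P28+24h library of run 1 and 27.2% in that of run 2.

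In the younger cords, where the genes were not chosen for their response, P7+24h injured was compared with P8 control. *MYL1* alone had both injured libraries above both controls, which 8.55% of all genes did. None of the 8 was called by edgeR's quasi-likelihood test (0% of all genes called higher), none had an unadjusted p under 0.05 (69 of all genes did, 0.488% of all genes on the higher side), and DESeq2 and edgeR's exact test called no sarcomere gene. With the run block the quasi-likelihood test called 0.0148% of all genes higher and none of the 8, and 1 of them, *ACTA1*, had an unadjusted p under 0.05, as 1.58% of all genes did on the higher side. The likelihood ratio test with the block called 0.266% of all genes higher and again none of the 8. Reads were few here, and in a fit on these groups alone only *ACTA1* and *ACTN3* passed the read minimum. A missing call therefore says little about the other genes.

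*ACTA1* had the largest fitted change at P7+24h, a log2 fold change of 1.50 ± 0.49 with the block (adjusted p = 1). Its ratio to the P8 control was 2.12 (0.453 to 13.1) in run 1 and 3.11 (1.69 to 6.11) in run 2, where 48 reads stood against 14. Without the P7+24h library of run 2 its log2 fold change without the block was -0.011. For 6 other genes the intervals spanned 1 in both runs, with ratios from 0.635 (*NEB* in run 2) to 2.72 (*MYL1* in run 2). *MYH4* had 4 reads at P7+24h in run 1 against none in the control, a ratio of 1.41 when the control is set at 3 reads. Its counting interval there began at 0.700, so a ratio under 1 was not excluded. In run 2 the ratio of *MYH4* was 0.454 (0.0734 to 2.12). The summed level was 1.58 times the control in run 1 (1.07 to 2.36) and 1.50 times in run 2 (1.10 to 2.07), and in run 2 *ACTA1* held 43.2% of the sarcomere reads (33.9 to 53.0%).

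The controls of the 2 ages were compared to see what growth of the cord changes without injury. The P29 control was above both P8 controls for 4 genes, *MYLPF*, *TPM2*, *NEB* and *ACTN3*, as it was for 40.4% of all genes, and below both for *MYL1* and *DES*, as for 38.8% of all genes. Without the block no sarcomere gene was called, against 1.71% of all genes called higher. With the block *NEB* was called, with a log2 fold change of 1.92 ± 0.62 (adjusted p = 0.0342), against 12.5% of all genes called higher, and the likelihood ratio test with the block also called *NEB* only (13.6% of all genes called higher). In run 1 *NEB* was 3.98 times higher in the P29 than in the P8 control (1.66 to 10.9). The P29 control is shared with the P28+24h comparison, so a low control value there raises the one fold change and lowers the other: *DES* had log2 fold changes of -1.41 ± 1.09 with age and 3.58 ± 1.05 with injury, *MYL1* of -2.13 ± 2.17 and 7.07 ± 2.05.

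Whether the response differed between the ages was tested as the difference of the log2 fold changes. All 8 differences were above 0, from 1.17 (*ACTN3*) to 6.12 (*MYL1*) with the run block, as were 48.4% of all genes. Each difference contains the P28+24h fold change for which these genes had been listed as raised, so its sign is not independent of their choice. The quasi-likelihood test called none of them without the block (0% of all genes called higher, 2 sarcomere genes and 59 of all genes at an unadjusted p under 0.05, 0.34% of all genes on the higher side) and none with it, against 0.0369% of all genes called higher. *MYL1* and *DES* had the lowest adjusted p-values with the block, 0.27 each, for differences of 6.12 ± 2.27 and 3.53 ± 1.18. The likelihood ratio test with the block called these same genes, *MYL1* at an adjusted p of 0.00645 and *DES* at 0.0373, with 1.2% of all genes called higher, and DESeq2 called no sarcomere gene. Set directly against the P7+24h cords of the same run, the P28+24h cords had 10.5 times (8.13 to 13.7) the summed level in run 1 and 4.24 times (3.43 to 5.27) in run 2, a comparison that takes in age as well as injury.

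Another 8 muscle-related genes with a known identifier were followed in the same libraries. The identifiers came from the study's own gene lists. The paper lists *MYBPC3*, a myosin heavy chain-like gene, *PGAM2*, *TRDN* and *ACTA1*-like as raised at P28+24h in these same libraries. Their direction in that comparison is therefore not independent evidence. *ACTA1*-like (ENSMODG00000008826) had 14.1 and 9.71 CPM in the P8 controls, 18.4 and 12.1 CPM at P7+24h, 33.3 CPM in the P29 control, and 76.9 and 48.6 CPM at P28+24h. Both P28+24h libraries were its highest, and its log2 fold change against the P29 control was 1.18 ± 0.23 with the block (adjusted p = 0.0508). *PGAM2*, the muscle form of a glycolytic enzyme, had 1.73, 2.30, 2.10, 1.34 and 1.72 CPM in the P8 controls, the P7+24h cords and the P29 control, and 9.17 and 4.05 CPM at P28+24h.

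Both P28+24h libraries were also above all others for *MYBPC3*, a myosin-binding protein best known from the heart, with 6.35 and 3.40 CPM against 1.15 to 3.15 CPM in the other libraries. *ATP2A1*, the calcium pump of fast muscle, had 15.9 and 8.90 CPM at P28+24h, and the P8 control of run 1 lay between them at 12.4 CPM. The paper's text also names *ATP2A1* as changed at P28+24h, but as downregulated. In these counts the P29 control had 6.89 CPM, below both P28+24h libraries. *TRDN*, which encodes triadin of the calcium release complex, had 17 reads in the P28+24h library of run 1, 1 in that of run 2 and none in the P29 control. The more broadly expressed tropomyosins differed less from the P29 control. *TPM1* had 44.1 and 35.3 CPM at P28+24h and 22.7 CPM in the P29 control, a log2 fold change of 0.95 ± 0.25 (adjusted p = 0.103), and its younger libraries had 40.1 to 55.6 CPM. *TPM3* had a log2 fold change of 0.16 ± 0.20.

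The gene annotated as myosin heavy chain-like had 9.52 and 4.69 CPM at P28+24h, and the P8 control of run 1 reached 4.70 CPM. None of the 8 further muscle genes was called at P28+24h by the quasi-likelihood test with or without the block. The likelihood ratio test with the block called 5 of them, with 2.61% of all genes called higher. They were *MYBPC3*, the myosin heavy chain-like gene, *PGAM2*, *TRDN* and *ACTA1*-like. None of the 8 was called at P7+24h by any of these tests.

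Markers of other tissues were read beside the sarcomere genes, as far as their identifiers are known. These identifiers also came from the study's own gene lists. The paper lists *TAGLN* as raised and *SLC18A3* and *MBP* as lowered in the older injured cords of these same libraries. It reports most of its changed blood-related genes as raised there. The direction of such markers in the injured older libraries is therefore not independent evidence. The red cell genes *AHSP*, *ALAS2* and *HBZ* summed to 456 and 134 CPM in the P28+24h libraries of runs 1 and 2 against 216 CPM in the P29 control, and to 51.2 to 283 CPM in the younger libraries, with run 1 above run 2 in every group that had both. *TAGLN*, a smooth muscle gene, had 39.1 and 17.0 CPM at P28+24h and 13.2 CPM in the P29 control. *SLC18A3*, the vesicular acetylcholine transporter of motor neurons, was at 40.2 CPM in the P28+24h library of run 1, below the 102 CPM of the P29 control, and at 127 CPM in that of run 2, above it. Of the cord markers, *MBP* was at 0.604 and 0.853 times the P29 control in the P28+24h libraries of runs 1 and 2, and *GFAP* at 0.937 and 1.54 times. The library with the most sarcomere RNA was also the one with the most *TAGLN* and red cell RNA and the least *SLC18A3*. However, *TAGLN* was higher and *SLC18A3* lower in run 1 than in run 2 in the younger groups too, where *TAGLN* had 10.6 and 5.92 CPM in the P8 controls and 14.2 and 7.91 CPM at P7+24h, and *SLC18A3* 76.9 and 116 CPM and then 74.5 and 153 CPM. The part that muscle carried in with the dissected cord may have in these values was not tested.

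**Figure D5:**
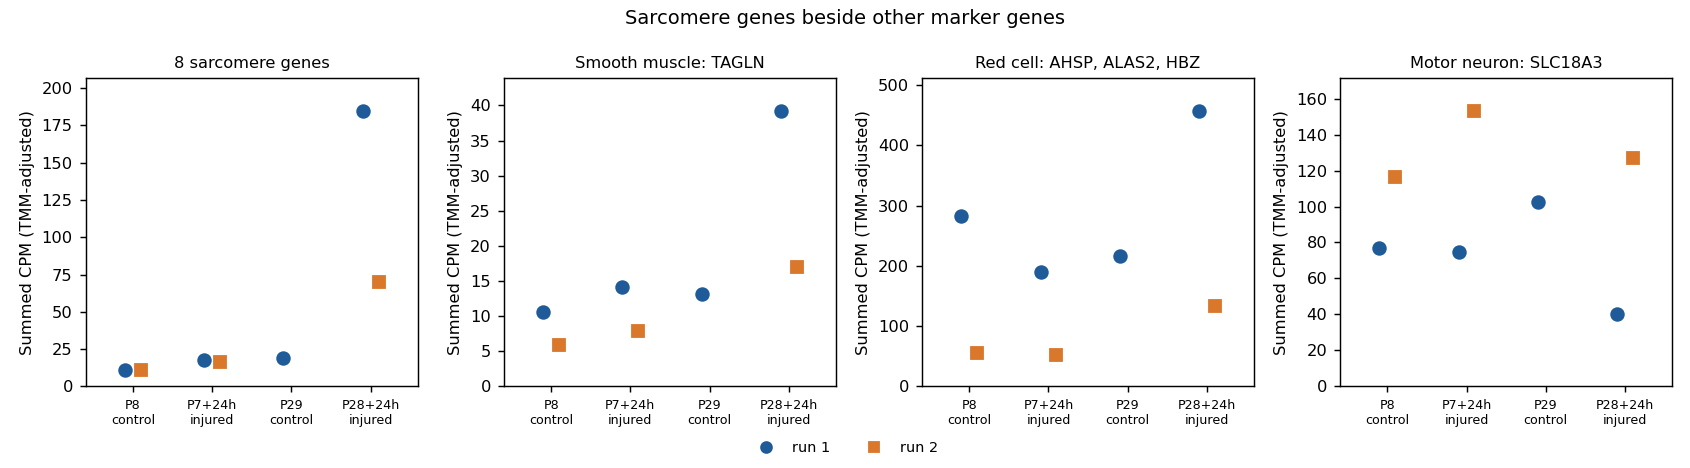
Summed TMM-adjusted CPM of the 8 sarcomere genes beside *TAGLN*, 3 red cell genes and *SLC18A3* in the 7 libraries, on linear axes from 0, with run 1 as circles and run 2 as squares. The P28+24h library of run 1 is highest for the first 3 panels (184, 39.1 and 456 CPM) and lowest for *SLC18A3* (40.2 CPM).

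Over the 7 libraries, the log2 CPM of each sarcomere gene was set against the mean of the other 7 genes. For that mean, the log2 CPM of each gene was first centred and scaled to equal spread over the libraries. Pearson's r was 0.95 for *MYLPF* and *MYH4* and 0.94 for *MYL1*, 0.88 for *TPM2*, 0.85 for *DES* and 0.82 for *NEB*, and lowest for *ACTN3* (0.66) and *ACTA1* (0.65). *ACTA1* and *ACTN3* had r = 0.14 with each other. These values describe 7 points that share their libraries, runs and depth, and the P28+24h libraries set most of their range. Of the other 13526 genes tested, 17 had r above 0.95 with the mean sarcomere profile. The 5 most alike were *C1R*, a protease of the complement cascade (r = 0.98), and 4 genes for which the sources used here give no symbol, led by ENSMODG00000001792 and ENSMODG00000011449 (r = 0.99 each), the latter with 0 or 1 read in the 5 libraries outside P28+24h and 9 and 7 in it. Among the further muscle genes r was highest for *PGAM2* and *ACTA1*-like, at 0.95 and 0.91, and lowest for *TPM1*, at 0.04.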

How the data were processed

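RNA from rostral spinal cord, 2 individuals per library, was sequenced as single-end reads in 2 runs. After trimming, the authors aligned the reads to the opossum genome of Ensembl release 69 with Bowtie2 (version 2.0.4) and used the union mode of HTSeq to count those on nuclear genes. The deposited table holds the raw counts per gene, 1 column per library. Use of strand is not given in the sources used here, and the sample descriptions and the methods state different RNA integrity numbers. The study's own test was edgeR's exact test (version 2.6.12).

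Counts were scaled by TMM factors, filtered with filterByExpr (minimum count 10) and tested with the quasi-likelihood test of edgeR 4.0.16 in R 4.3.3 over all 7 libraries and 4 groups, with Benjamini-Hochberg adjustment over the 13534 genes. Genes were called where the adjusted p was under 0.05 and the fold was 2 or more. Standard errors are Wald errors from the fitted means, dispersion and moderated quasi-likelihood variance. Correlations used log2 CPM with a prior count of 2, and mean profiles averaged the genes after each was centred and scaled over the libraries. Library totals of 3332232 to 6256074 counts put 3 counts at 0.448 to 1.06 CPM, and intervals on ratios and shares cover counting error only.

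The replicate number in the sample titles is the sequencing run, and this pairs the libraries. The differences between the runs correlated across genes at 0.80 for P8 control with P7+24h, 0.70 for P8 control with P28+24h and 0.74 for P7+24h with P28+24h. The run as a block lowered the common dispersion from 0.141 to 0.0181, with 2 in place of 3 residual degrees of freedom. Alternatives were edgeR's exact test, DESeq2 1.42.0, a likelihood ratio test with the block, the compared groups only, RLE factors, library size only, other low-count filters, no fold threshold, the block, and each replicate left out. Leaving out replicates under the block was chosen after seeing the data. The scripts were tested on simulated data.

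The named genes are the 8 sarcomere genes, 8 further muscle genes, the markers with an identifier, and the 5 genes most alike in profile. These genes and lists were chosen with earlier results of these data known. Gene symbols come from the study's supplementary gene lists. Only 6 of 70 symbols of the skeletal muscle marker lists (8.57%) had an identifier, and at most 50% of any list, under the 80% needed, so no whole list is described. Some further marker values are not reported here. RefSeq (mMonDom1.pri) holds 7 of the 8 symbols but pairs no Ensembl identifiers, and coordinates and sequences are not given.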

Additional observations from a re-analysis of the deposited data

How the results depend on the processing

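No setting reversed a sarcomere gene in the P28+24h comparison. Each of these genes had been listed as raised there and lay higher in both injured libraries than in the single P29 control. The unchanged sign is therefore not independent evidence of a direction. Counts of genes called at P28+24h against P29 control were 0 in the fit over all libraries, 3 by edgeR's exact test, 2 on the compared groups only (1 of them a sarcomere gene), 102 with the replicate block (2 sarcomere genes) and 493 by the likelihood ratio test with the block (6 sarcomere genes). At P7+24h they were 0, with 5 by the exact test, 2 by DESeq2, 2 with the block and 36 by the likelihood ratio test with the block. For P29 against P8 controls 242 genes were called, with 972 by the exact test, 855 by DESeq2, 989 on the compared groups only, 138 by library size only, 2893 with the block and 3242 by the blocked likelihood ratio test (1 sarcomere gene in each of the last 2), and for the difference between the ages 0, with 5 under the block and 200 by the likelihood ratio test, 2 of them sarcomere genes.

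Leaving out each replicate gave 0 to 139 called genes for P29 against P8 controls, 0 without either P8 control, and 0 sarcomere genes in every comparison without the block. With the replicate block, 3 to 8 sarcomere genes were called at P28+24h, the fewest without the P28+24h library of run 1.

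With age, the pairing by run turned the log2 fold change of *MYH4* from 0.60 to -0.14 and of *ACTN3* from 0.51 to -0.11, and the likelihood ratio test with the block gave -0.040, -0.10 and, for *ACTA1*, 0.0095 against -0.86. Over the fits without 1 replicate, log2 fold changes that turned in sign ran from -0.19 to 5.0 (*MYH4*) and -1.39 to 0.21 (*ACTA1*) with age. At P7+24h they ran from -0.48 to 4.71 (*MYH4*), -0.011 to 2.56 (*ACTA1*), -0.12 to 0.64 (*TPM2*), -0.68 to 0.89 (*NEB*), -0.77 to 1.15 (*ACTN3*) and -0.14 to 0.41 (*DES*). For the difference between the ages they ran from -1.05 to 4.15 (*MYH4*), -0.062 to 1.62 (*TPM2*) and -0.26 to 1.67 (*ACTN3*). None of these was called, and the cause was not tested. The P29 control, a single library, could not be left out of its comparisons. For 4 of the 8 genes, *MYH4*, *MYL1*, *ACTA1* and *DES*, 3 or fewer reads in the P29 control limit the fold at P28+24h.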
